A study of Mus musculus with 9 samples.

Results

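Mouse induced pluripotent stem cells (iPSCs) grown out of reprogramming cultures with a YAP vector (YAP is Yes-associated protein) were compared with iPSCs from cultures given an empty vector. The comparison takes 6 of the 9 RNA-seq libraries of the series, 3 per group, and they were chosen by their labels and column headings, not by any measured value. It asks what remained different in iPSCs from YAP cultures once YAP overexpression was lost.

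The YAP-culture iPSCs are labelled Oct4:GFP+YAPmCherry+, and they grew out of embryonic fibroblasts that received the YAP vector by lentivirus. The control iPSCs are labelled Oct4:GFP+, and they grew out of fibroblasts that received the empty vector. Both groups went through 75 days of reprogramming and culture, with doxycycline at 1 µg/mL in the medium of the reprogramming cells, and iPSCs were kept in embryonic stem cell medium on feeder cells. The labels disagree on YAP in the YAP-culture iPSCs, since the titles say that its overexpression was lost while the genotype and the column heading mark the cells as YAP+. The reprogramming factors, the cells that gave each library, and whether colonies were pooled are not given in the sources used here. The remaining 3 libraries are non-pluripotent YAPmCherry+ colonies from YAP-transduced fibroblast cultures, kept with doxycycline, and they serve below only as levels set beside those of the iPSCs.

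YAP and its relative TAZ are co-activators at the end of the Hippo pathway. When the pathway's kinases MST and LATS are active they phosphorylate YAP and TAZ and keep them out of the nucleus. When the kinases are inactive, YAP and TAZ enter the nucleus, bind the TEAD DNA-binding factors and switch on genes such as Ctgf and Cyr61. Mouse iPSCs are somatic cells brought to a state like that of embryonic stem cells, held by Oct4 (gene Pou5f1), Sox2 and Nanog.

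Both groups carried the pluripotency genes at high levels. The 6 defining pluripotency markers, Pou5f1, Sox2, Nanog, Zfp42, Esrrb and Dppa5a, summed to 5440, 6130 and 5380 FPKM (fragments mapped to a gene, scaled to transcript length and to all mapped fragments) in YAP-culture iPSC libraries 1, 2 and 3, against 5690, 5090 and 4570 FPKM in control libraries 1, 2 and 3. Dppa5a alone made up 4460, 5180 and 4330 FPKM of this in YAP-culture iPSCs, against 4480, 3910 and 3440 FPKM in control iPSCs. The other 5 genes summed to 977, 949 and 1050 FPKM in YAP-culture iPSCs, against 1200, 1180 and 1120 FPKM in control iPSCs, and to 427, 417 and 498 FPKM in the YAP colonies. The YAP-culture libraries were thus below the controls in this sum, without overlap, while the sums of all 6 markers overlapped. The sum without Dppa5a was added after the values were seen. Among the pluripotency markers, Pou5f1 was higher in the colonies, at 280, 267 and 295 FPKM, than in any iPSC library. Zfp42 and Esrrb were under 1 FPKM in the colonies. The reprogramming factors are not given, so whether reads of introduced copies are counted for Pou5f1, Sox2, Klf4 or Myc was not tested. Of the 11 feeder fibroblast markers, 7 were under 1 FPKM in all 6 iPSC libraries, and the 11 summed to between 5.44 and 10.9 FPKM in YAP-culture iPSCs and between 5.62 and 8.01 FPKM in control iPSCs. Thy1 was the largest of them, at 2.80, 2.79 and 4.86 FPKM in YAP-culture iPSCs and 4.87, 3.67 and 3.08 FPKM in control iPSCs. Dcn was higher in YAP-culture iPSCs without overlap, at 0.175, 0.611 and 0.344 FPKM, against 0.0593, 0.0948 and 0.102 FPKM in control iPSCs. Prrx1 was also higher without overlap, and the groups overlapped for the other feeder markers. Col1a1, the main fibrillar collagen chain of fibroblasts, was at most 0.637 FPKM in YAP-culture iPSCs and at most 0.216 FPKM in control iPSCs. The 3 neural markers measured summed to between 2.62 and 3.34 FPKM in YAP-culture iPSCs and between 1.40 and 2.21 FPKM in control iPSCs, and the 4 mesendoderm markers to between 3.46 and 3.80 FPKM in YAP-culture iPSCs and between 3.31 and 4.42 FPKM in control iPSCs.

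Level differences between libraries moved with the base composition of transcripts, and this touches all results below. Over 11042 protein-coding rows, Spearman's rank correlation between a library's deviation from the control mean and the GC content of the longest transcript was -0.70 and -0.67 in YAP-culture libraries 1 and 2 and -0.09 in YAP-culture library 3, against 0.49, -0.47 and 0.06 in control libraries 1, 2 and 3. Each control library is part of the control mean, so the deviations of the 3 control libraries cancel out in each row. Deviations of control and YAP-culture libraries are therefore not alike in scale, here and below. In the rows with the highest GC content, from 55.4% to 69.7%, the median deviation on the log2(FPKM + 1) scale was -0.65, -0.78 and 0.02 in YAP-culture libraries 1, 2 and 3. In the rows with the lowest GC content, from 31.0% to 43.7%, it was 0.35, 0.30 and 0.08 in the same libraries. YAP-culture library 3 therefore lacked the trend of the other YAP-culture libraries. Its Pearson correlation with control library 2, across tested rows, was 0.9657, against 0.9377 and 0.9273 with YAP-culture libraries 1 and 2. The part of the base composition in any one gene's difference was not tested, and values after a per-library GC correction are given for most lists and for many genes.

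**Figure D1:**
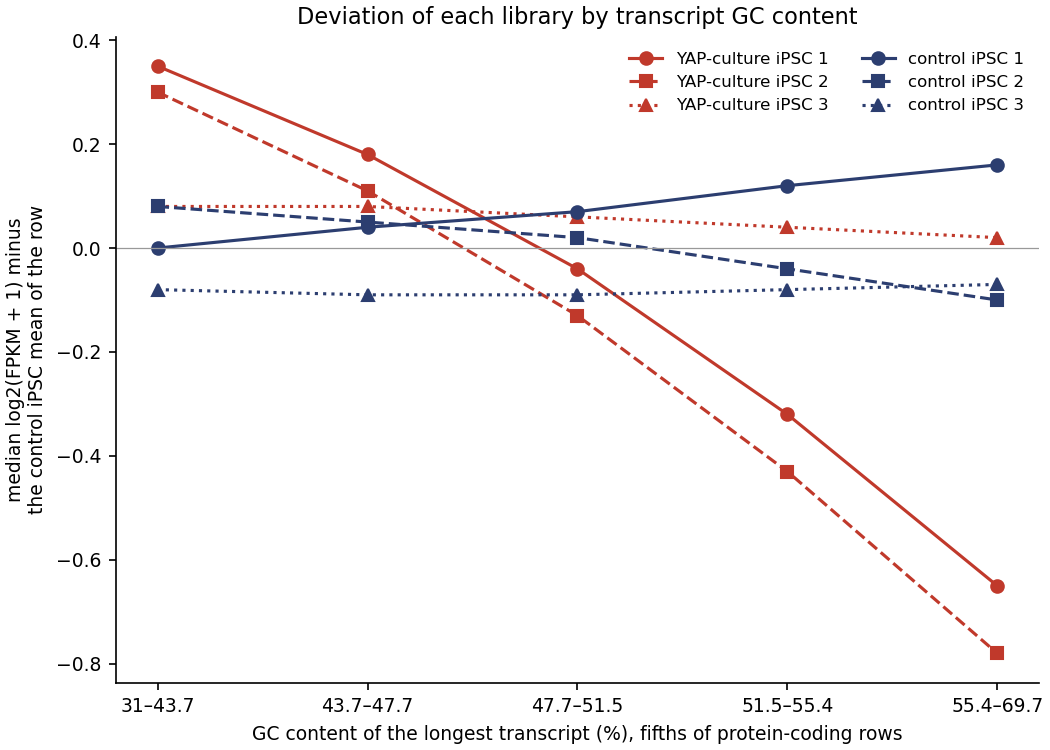
Median deviation of each library from the control iPSC mean (vertical axis, log2(FPKM + 1)) in 5 equal bins of 11042 protein-coding rows ordered by transcript GC content (horizontal axis, percent). YAP-culture libraries 1 and 2 fall to -0.65 and -0.78 in the bin of highest GC content, while YAP-culture library 3 stays at 0.02. Each control library is part of the mean it is set against.

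The number of genes that differed was small in the deposited values. Of 13429 tested rows, 29 were higher in YAP-culture iPSCs (0.216%) and 26 were lower (0.194%), by limma's moderated test, with calls made at a log2 fold change of 1 or more in size and an adjusted p under 0.05. Below, "rose" and "fell" are used for genes that passed both, and every fold change is that of log2(FPKM + 1), so the change of low genes is understated. An unadjusted p below 0.05 was reached by 3410 rows, or 25.4%. All 55 called rows had groups that did not overlap, as had 16.6% of all tested rows in the higher direction and 14.2% in the lower direction. After the GC correction 76 rows were higher (0.568%) and 65 lower (0.486%), and 48 of the 55 calls were among them. Nothing in the labels says that replicates came from separate cultures, and p-values therefore reflect the spread among these libraries alone, possibly a technical one.

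Single libraries decided the count. Without YAP-culture library 3 it was 1061 (7.9%), with 149 higher (1.11%) and 912 lower (6.79%), and 521 of the lower calls were protein-coding rows with a GC content of 55.4% or more. With the GC correction and without that library it was 144 higher and 186 lower. Leaving out YAP-culture library 1, YAP-culture library 2, control library 1 or control library 3 brought the total to 17, 24, 13 or 12. Of the 55 called rows, 46 lost the call in at least 1 of the 6 fits that leave out a library, and none changed sign. The 9 that were called in all 6 fits were all listed at 0 in every library of one group. Among the genes described below, Cth and Lats2 were called in 4 of the 6 fits, Apela, B2m, Rhox9 and Vapb in 3, Grb10 and Nid1 in 2, and Ctgf, Myc and Tfap2c in 1.

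**Figure D2:**
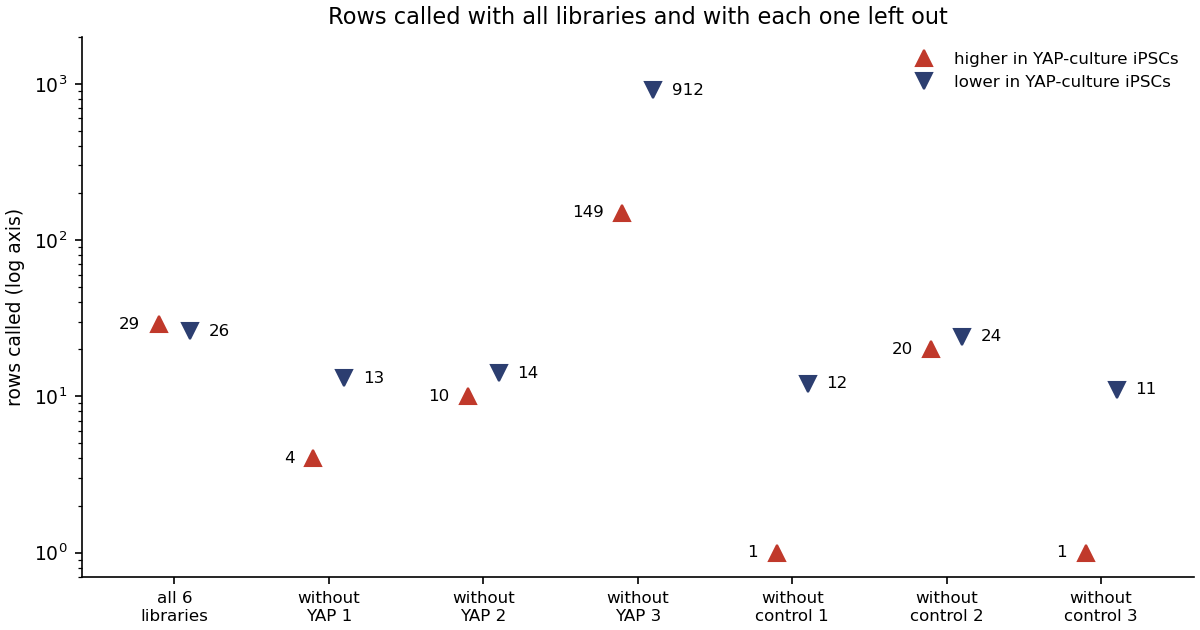
Number of rows called higher or lower in YAP-culture iPSCs (vertical log axis) with all 6 libraries and with each library left out (horizontal axis). Leaving out YAP-culture library 3 gives 149 higher and 912 lower, against 29 and 26 with all libraries.

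**Figure D3:**
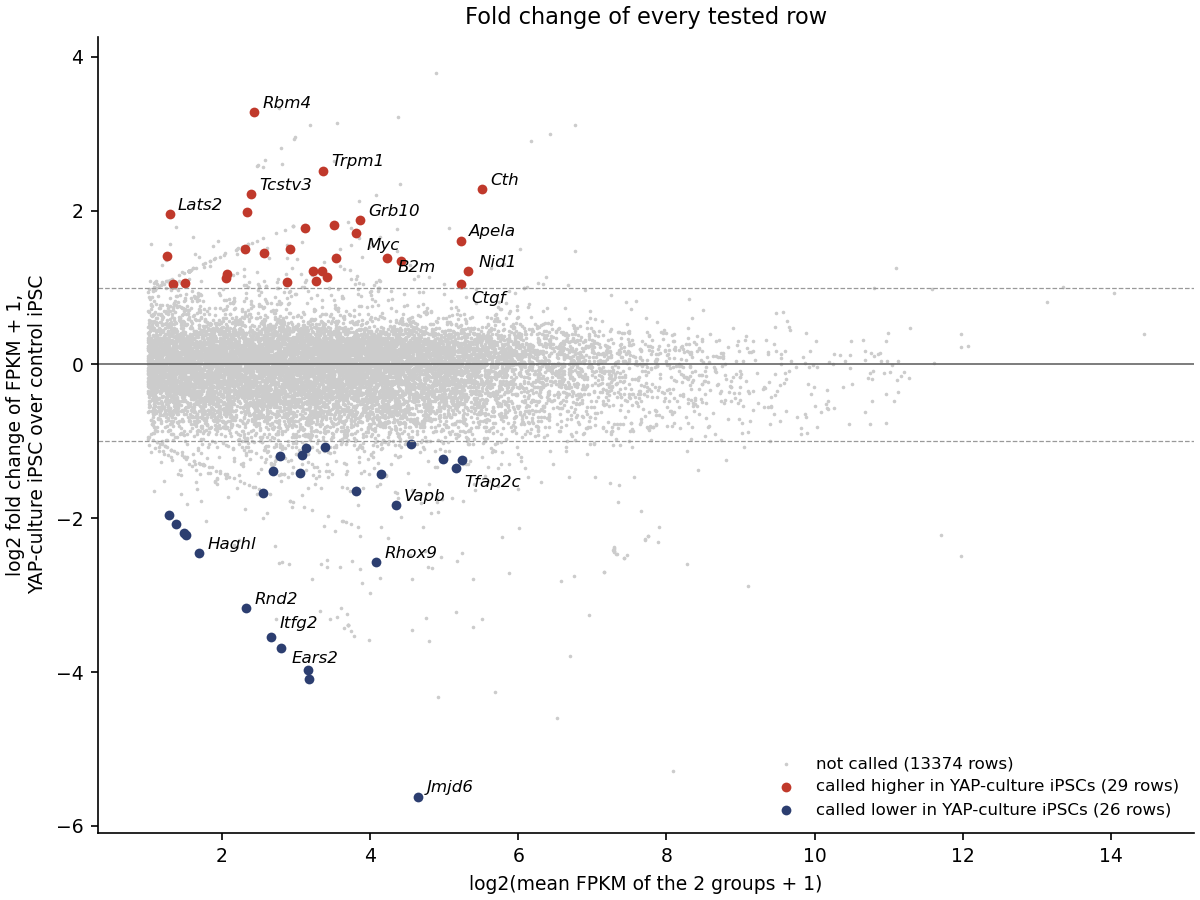
Fold change (vertical axis, log2 of FPKM + 1, YAP-culture over control iPSCs) against mean level (horizontal axis, log2(FPKM + 1)) of 13429 tested rows, with the 29 rows called higher in red and the 26 called lower in blue. Cth stands out among the higher genes at 2.28, and Jmjd6, the lowest of the blue points, is listed at 0 in all YAP-culture libraries.

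The Yap1 gene itself was not higher in iPSCs from YAP cultures. Yap1 (chr9:7931999-8004596, mm10) had 39.1, 32.5 and 36.7 FPKM in YAP-culture iPSCs, against 45.8, 41.3 and 40.4 FPKM in control iPSCs. Each YAP-culture library was below each control library, and the log2 fold change of -0.23 ± 0.117 (SE) did not pass the test (adjusted p = 0.248). The non-pluripotent colonies had 60.9, 59.1 and 63.1 FPKM. Whether reads of the vector's YAP are counted in this row is not given in the sources used here. Wwtr1, which encodes TAZ, had 9.17, 8.63 and 8.97 FPKM in YAP-culture iPSCs, against 5.54, 5.6 and 4.97 FPKM in control iPSCs. The groups were well apart for Wwtr1, at a log2 fold change of 0.64 (adjusted p = 0.0616), or 0.48 after the GC correction (adjusted p = 0.028), under the fold threshold in both.

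Among YAP and TEAD targets, Ctgf and Lats2 rose and the other tested targets did not pass. Ctgf (chr10:24595442-24598683), a secreted matricellular protein and the most used YAP readout, had 53.1, 48.2 and 47.0 FPKM in YAP-culture iPSCs, against 25.4, 21.8 and 23.3 FPKM in control iPSCs. The 3 YAP-culture libraries were close together and clear of the controls, with a log2 fold change of 1.04 ± 0.11 (SE, adjusted p = 0.0212). With any library left out it stayed between 0.99 and 1.10, but adjusted p ran from 0.00905 to 0.166. Ctgf was called in 1 of those 6 fits. In the colonies Ctgf had 31.0, 29.9 and 19.5 FPKM, below the YAP-culture iPSCs. Lats2, the kinase that phosphorylates YAP and is itself a YAP target, had 3.24, 3.18 and 2.30 FPKM in YAP-culture iPSCs and was listed at 0 in all 3 control libraries. It was called higher (adjusted p = 0.0106), and the colonies had 12.3, 16.8 and 13.5 FPKM. An exact 0 can be a failed estimate in these values, and the deposited Lats2 row (chr14:57642077-57758388) reaches into the row of Xpo4, which had 13.8, 12.8 and 15.6 FPKM in YAP-culture iPSCs and 12.7, 13.9 and 10.9 FPKM in control iPSCs.

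The other canonical targets showed smaller differences. Cyr61, the matricellular relative of Ctgf, had 28.6, 27.6 and 31.0 FPKM in YAP-culture iPSCs, against 29.9, 20.2 and 23.7 FPKM in control iPSCs, with overlapping groups (log2 fold change 0.25, adjusted p = 0.333). Amotl2, an angiomotin that binds YAP, had 18.4, 16.3 and 25.0 FPKM in YAP-culture iPSCs, against 16.9, 13.6 and 13.8 FPKM in control iPSCs (log2 fold change 0.39, adjusted p = 0.225, and 0.81 after the GC correction, adjusted p = 0.00933). The receptor tyrosine kinase Axl stayed between 1.10 and 1.47 FPKM in YAP-culture iPSCs and between 0.827 and 0.994 FPKM in control iPSCs (adjusted p = 0.257). Ankrd1 was under 0.2 FPKM in every iPSC library and was not tested. Of the 27 targets listed, 19 were tested, 2 rose and none fell, 8 were higher without overlap and 1 lower without overlap. Over all tested rows, 0.216% were called higher, 16.6% were higher without overlap and 14.2% lower. The targets' median log2 fold change was 0.23, against -0.04 over all tested rows (0.30 and 0.01 after the GC correction). Their summed level was 351, 349 and 382 FPKM in YAP-culture iPSCs and 382, 341 and 328 FPKM in control iPSCs, so the 2 groups overlapped in the sum. Of 31 Hippo pathway components 26 were tested, and Lats2 was the only one called (0.41% of all tested rows were called). The list's median was 0.08, and 10 of the 26 reached an unadjusted p below 0.05 (25.4% of all tested rows). The kinases Stk3, Stk4 and Lats1 had log2 fold changes of 0.30, 0.21 and 0.06, and the DNA-binding partners Tead1, Tead2, Tead3 and Tead4 had 0.39, -0.66, -0.61 and 0.29, with no call.

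The promoters of called genes were searched for the core of the TEAD binding site, GGAATG, on both strands (reverse complement CATTCC). RefSeq windows of 300 bases, from 250 before to 50 after the start site (GRCm38.p6), held it for 16.6% of 27025 genes and for 14.3% of the 9076 tested genes with a window. It was in the windows of 5 of the 20 genes that rose and had one (Ablim1, Ahnak, Apela, Lats2 and Nid1), of 3 of the 15 genes that fell and had one (Atp2b4, Ears2 and Ina), and of 7 of the 13 listed targets with one. Some genes had several windows, and a gene was counted if any of its windows held the motif. Ablim1 and Lats2 also had windows without it, for Lats2 at chr14:57734369-57734668. A match describes these letters only. The windows of 3 genes that rose are shown with that of Cyr61, a target that did not pass the test, to set the motif's place side by side, with the motif in capitals. They lie at chr14:57746074-57746373 (minus strand, Lats2), chr13:13437352-13437651 (plus strand, Nid1), chr8:65037287-65037586 (minus strand, Apela) and chr3:145649936-145650235 (minus strand, Cyr61).
Lats2: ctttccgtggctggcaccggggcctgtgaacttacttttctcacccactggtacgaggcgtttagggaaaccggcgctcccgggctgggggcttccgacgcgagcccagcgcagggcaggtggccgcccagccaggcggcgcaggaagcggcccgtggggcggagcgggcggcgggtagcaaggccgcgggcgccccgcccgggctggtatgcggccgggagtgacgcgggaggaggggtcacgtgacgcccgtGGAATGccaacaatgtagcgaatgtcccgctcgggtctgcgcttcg
Nid1: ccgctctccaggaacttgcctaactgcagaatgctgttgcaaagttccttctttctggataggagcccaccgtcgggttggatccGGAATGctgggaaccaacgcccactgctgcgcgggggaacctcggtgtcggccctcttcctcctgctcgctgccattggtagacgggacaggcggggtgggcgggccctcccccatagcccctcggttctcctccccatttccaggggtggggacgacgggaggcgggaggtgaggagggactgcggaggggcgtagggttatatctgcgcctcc
Apela: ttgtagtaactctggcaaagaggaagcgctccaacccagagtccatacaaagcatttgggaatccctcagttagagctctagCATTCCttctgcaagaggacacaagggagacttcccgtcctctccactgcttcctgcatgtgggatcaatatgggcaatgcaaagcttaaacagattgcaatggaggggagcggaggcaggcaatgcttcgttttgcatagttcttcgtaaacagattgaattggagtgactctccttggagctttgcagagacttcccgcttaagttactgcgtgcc
Cyr61: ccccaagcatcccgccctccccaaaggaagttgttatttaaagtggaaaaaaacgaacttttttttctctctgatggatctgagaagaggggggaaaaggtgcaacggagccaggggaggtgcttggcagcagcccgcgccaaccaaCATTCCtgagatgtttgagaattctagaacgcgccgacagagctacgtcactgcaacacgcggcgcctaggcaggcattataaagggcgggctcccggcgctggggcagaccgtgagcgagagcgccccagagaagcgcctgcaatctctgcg
The motif began 5 bases after the start site in Lats2, and at position -165 in Nid1, -168 in Apela and -103 in Cyr61.

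Myc rose, and the pluripotency factors did not pass. Myc (chr15:61985341-61990374), the proto-oncogenic transcription factor that promotes growth, had 15.7, 18.4 and 27.7 FPKM in YAP-culture iPSCs, against 5.96, 5.14 and 5.27 FPKM in control iPSCs. All 3 YAP-culture libraries were above the controls and YAP-culture library 3 was the highest, at a log2 fold change of 1.71 ± 0.209 (SE, adjusted p = 0.0364). The colonies had 336, 413 and 454 FPKM of Myc. It was the only member called among 17 tested genes of the MYC network (0.41% of all tested rows were called). The network's median log2 fold change was -0.07 (0.06 after the GC correction). An unadjusted p below 0.05 was reached by 6 of the 17 (25.4% of all tested rows). Klf4, a naive pluripotency factor of the Krüppel-like family, had 61.6, 86.5 and 73.3 FPKM in YAP-culture iPSCs, against 50.3, 65.6 and 51.5 FPKM in control iPSCs (log2 fold change 0.40, adjusted p = 0.205). Whether reads of introduced reprogramming factors are counted in the rows of Myc and Klf4 was not tested.

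The core pluripotency genes differed by less than the fold threshold. Pou5f1 had 119, 134 and 213 FPKM in YAP-culture iPSCs, against 226, 198 and 185 FPKM in control iPSCs. YAP-culture library 3 lay among the controls and the other 2 below them, and the log2 fold change was -0.42 (adjusted p = 0.273), or 0.04 after the GC correction. Nanog had 326, 305 and 292 FPKM in YAP-culture iPSCs and 390, 400 and 366 FPKM in control iPSCs, without overlap, at -0.32 (adjusted p = 0.164), or -0.44 after the GC correction (adjusted p = 0.0289). Sox2 (log2 fold change -0.19), Zfp42 (-0.14) and Esrrb (-0.11) had adjusted p-values of 0.368, 0.416 and 0.637, and Esrrb was at 0.21 after the GC correction. Of 30 naive pluripotency genes tested none was called, and 8 had an unadjusted p below 0.05 (25.4% of all tested rows). The list's median log2 fold change was -0.09 (0.00 after the GC correction).

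Dppa3, the maternal factor Stella, which protects imprints and is heterogeneous in embryonic stem cells, was the naive gene with the largest difference. It had 12.2, 8.44 and 13.9 FPKM in YAP-culture iPSCs, against 37.6, 25.5 and 33.2 FPKM in control iPSCs. The groups were apart, at a log2 fold change of -1.41 (adjusted p = 0.0594), and Dppa3 was called lower after the GC correction (-1.54, adjusted p = 0.0288). The row of its X-linked pseudogene Dppa3-ps, which can share reads with it, had 14.4, 9.30 and 10.7 FPKM in YAP-culture iPSCs and 29.9, 22.4 and 28.5 FPKM in control iPSCs (-1.18, adjusted p = 0.0612). Utf1, a chromatin factor of pluripotent cells, had 23.1, 18.0 and 70.3 FPKM in YAP-culture iPSCs, against 91.5, 67.3 and 75.9 FPKM in control iPSCs, and YAP-culture library 3 lay within the controls (-1.30, adjusted p = 0.176, and -0.57 after the GC correction). Tfcp2l1, a naive transcription factor, had 79.8, 78.8 and 77.8 FPKM in YAP-culture iPSCs and 44.9, 53.1 and 40.8 FPKM in control iPSCs, at 0.76 (adjusted p = 0.0645).

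Formative and primed genes, which mark the step after the naive state, included no call. Otx2, a transcription factor of that step, had 0.993, 1.37 and 1.24 FPKM in YAP-culture iPSCs, against 2.48, 2.50 and 3.03 FPKM in control iPSCs (log2 fold change -0.74, adjusted p = 0.0907, and -0.82 after the GC correction, adjusted p = 0.0395, under the fold threshold in both). The median of the 13 tested members was -0.47 in the deposited values and 0.05 after the GC correction. An unadjusted p below 0.05 was reached by 7 of the 13 (25.4% of all tested rows). For DNA methylation enzymes the median was -0.30 over 10 members and -0.09 after the GC correction, with no call. Of these 10, 5 reached an unadjusted p below 0.05. The demethylation enzyme Tet2 had 31.5, 31.4 and 28.9 FPKM in YAP-culture iPSCs, against 16.9, 20.4 and 15.9 FPKM in control iPSCs, at 0.76 (adjusted p = 0.0645). The de novo methyltransferase Dnmt3b had 29.1, 22.7 and 36.9 FPKM in YAP-culture iPSCs and 48.7, 37.3 and 40.5 FPKM in control iPSCs, at -0.52 (adjusted p = 0.181), or -0.28 after the GC correction. Its cofactor Dnmt3l had 152, 171 and 241 FPKM in YAP-culture iPSCs and 259, 217 and 201 FPKM in control iPSCs, with overlapping groups.

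**Figure D4:**
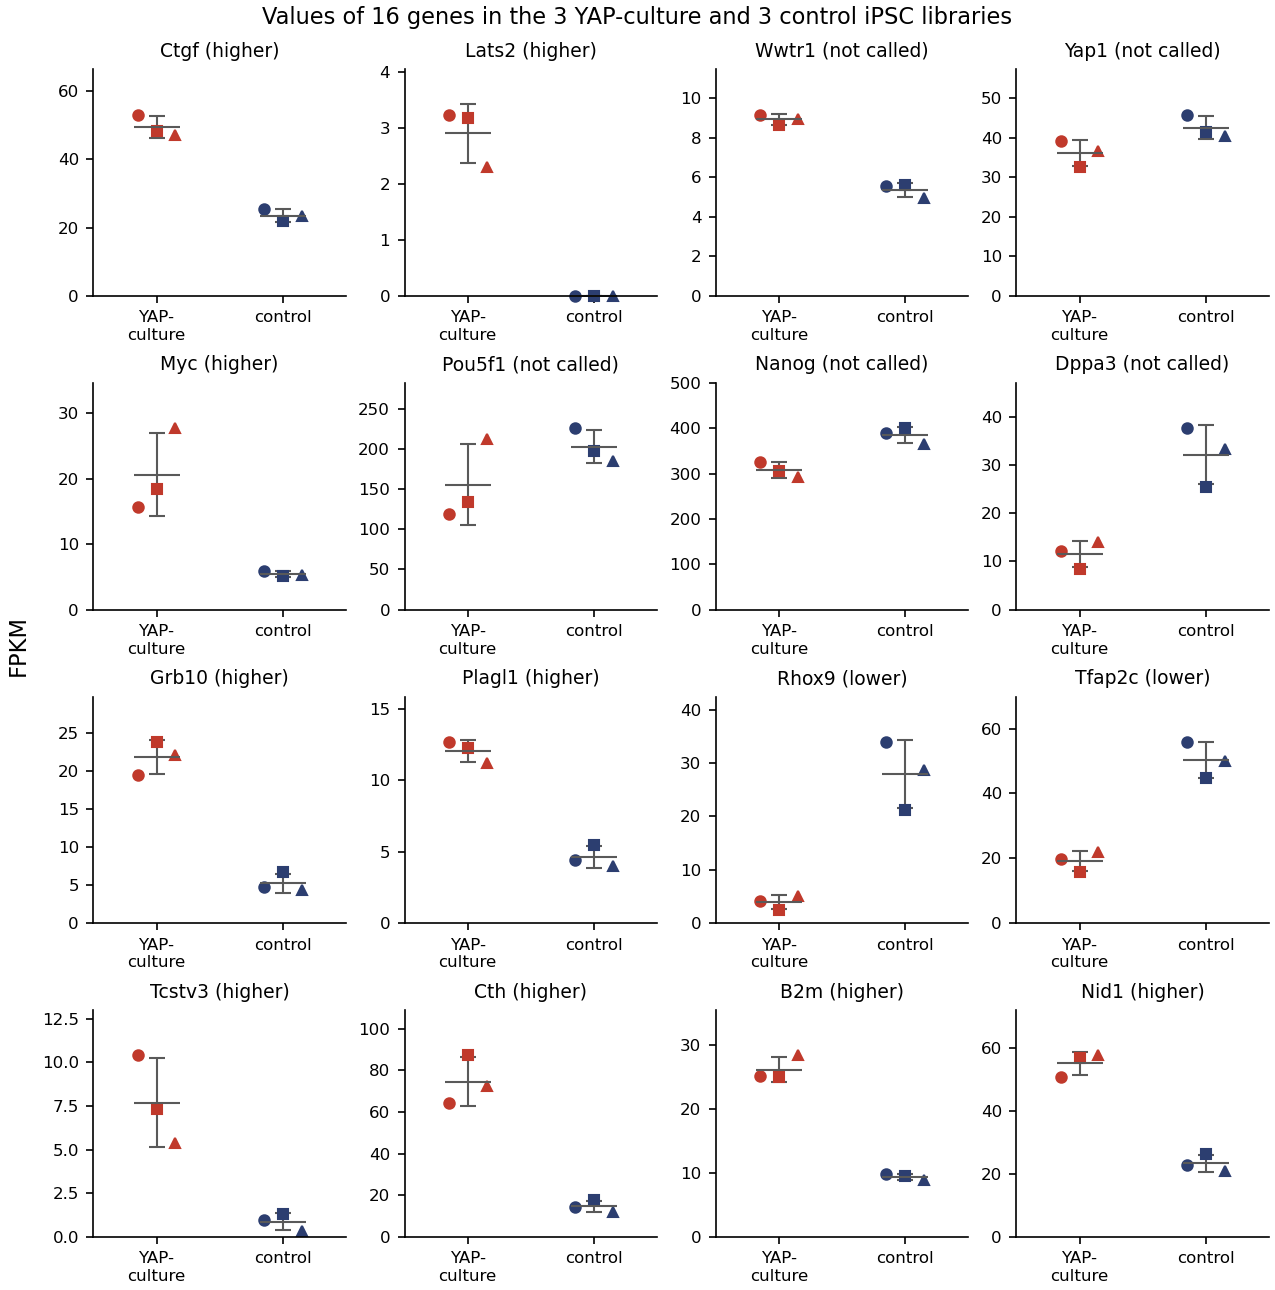
FPKM of 16 genes in YAP-culture iPSC libraries (red, left) and control iPSC libraries (blue, right), with circles, squares and triangles for libraries 1, 2 and 3, and bars for mean ± SD (n = 3). Ctgf, Lats2, Myc, Grb10, Plagl1, Tcstv3, Cth, B2m and Nid1 lie above the controls in all 3 YAP-culture libraries, and Rhox9 and Tfap2c below them.

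Genes of the two-cell stage all lay higher in YAP-culture iPSCs by their mean, and 2 of them passed the test. These genes are active in the mouse embryo when its own genome switches on, and in a rare fraction of cells in embryonic stem cell cultures. Of 23 tested rows all 23 had a log2 fold change above 0, as had 6130 of all 13429 tested rows, and 18 were higher without overlap (16.6% of all tested rows). The list's median was 0.87, against -0.04 over all rows, and 0.70 after the GC correction. The median member deviated from the control mean by 1.53, 0.59 and 0.50 in YAP-culture libraries 1, 2 and 3, against 0.11, 0.07 and -0.15 in control libraries 1, 2 and 3, so YAP-culture library 1 was the highest. The control libraries form that mean, so their deviations are smaller by construction. Tcstv3 and Tdpoz4 rose, as did 0.216% of all tested rows. Without YAP-culture library 3 the number called higher was 12, against 1.11% of all tested rows. The rows belong to families of near-identical copies that can share reads, so they are not independent and their split between copies is uncertain.

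Tcstv3, a telomere regulator on chromosome 13 (chr13:120317567-120318076), had 10.4, 7.34 and 5.35 FPKM in YAP-culture iPSCs, against 0.949, 1.28 and 0.331 FPKM in control iPSCs. Its groups were far apart, at a log2 fold change of 2.22 ± 0.284 (SE, adjusted p = 0.0422). Tdpoz4, of a family of TRAF and POZ domain proteins, had 3.00, 2.30 and 2.14 FPKM in YAP-culture iPSCs, against 0.308, 0.437 and 0.187 FPKM in control iPSCs (1.41, adjusted p = 0.0364). Zscan4c, the zinc finger gene that marks the two-cell-like state, had 23.7, 11.6 and 10.5 FPKM in YAP-culture iPSCs, against 7.69, 7.39 and 7.08 FPKM in control iPSCs. YAP-culture library 1 stood well above the others, and the difference of 0.87 did not pass the test (adjusted p = 0.163). The zinc finger gene Zfp352 had 5.39, 4.07 and 1.69 FPKM in YAP-culture iPSCs, against 0.535, 0.385 and 0.289 FPKM in control iPSCs (1.66, adjusted p = 0.0868), and was called after the GC correction (1.51, adjusted p = 0.0444). Outside the list, the oocyte-type homeobox gene Obox6 rose by 1.5 (adjusted p = 0.0482), with 12.7, 10.8 and 7.13 FPKM in YAP-culture iPSCs and 3.12, 2.58 and 2.93 FPKM in control iPSCs, and Gm21818, a gene model that neighbours Tcstv3, rose by 1.78. In the colonies Tcstv3 and Tdpoz4 were listed at 0.

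Trophoblast genes, of the lineage that builds the placenta, lay lower in YAP-culture iPSCs by their median, and 2 of them passed the test. Of 19 genes 13 were tested, 2 fell (0.194% of all tested rows) and none rose. Without overlap, 7 were lower (14.2% of all tested rows). The median log2 fold change was -1.06, against -0.04 over all rows, and -0.81 after the GC correction, and it was -0.59 when X-linked and Y-linked rows were left out. Rhox9, a homeobox gene of the X-linked reproductive cluster (chrX:37899097-37901770), had 4.12, 2.53 and 5.16 FPKM in YAP-culture iPSCs, against 34.0, 21.3 and 28.7 FPKM in control iPSCs. No library of one group came near the other, at -2.57 ± 0.255 (SE, adjusted p = 0.0171). Tfap2c, a transcription factor of trophoblast and germ cells (chr2:172549593-172558622), had 19.7, 15.8 and 22 FPKM in YAP-culture iPSCs, against 55.9, 44.9 and 50 FPKM in control iPSCs (-1.35, adjusted p = 0.031). Rhox6, a neighbour of Rhox9 and close to it in sequence, had 5.93, 2.64 and 9.03 FPKM in YAP-culture iPSCs and 35.9, 17.2 and 29.8 FPKM in control iPSCs, and was called only after the GC correction (-1.85, adjusted p = 0.0394). Rhox5, the founding member of the cluster, had 390, 431 and 537 FPKM in YAP-culture iPSCs, against 994, 805 and 888 FPKM in control iPSCs (-0.99, adjusted p = 0.0645).

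The 5 defining trophoblast markers were low in both groups, and they did not all lie the same way. Hand1 was at 0.765, 0.184 and 0.596 FPKM in YAP-culture iPSCs, against 5.71, 1.98 and 3.86 FPKM in control iPSCs. Cdx2 was at most 0.141 FPKM in YAP-culture iPSCs and at most 0.367 FPKM in control iPSCs, and Elf5 lay between 0.302 and 0.678 FPKM in YAP-culture iPSCs and between 0.190 and 1.2 FPKM in control iPSCs. Tfap2a was higher in YAP-culture iPSCs without overlap, at 0.483, 0.604 and 0.574 FPKM, against 0.285, 0.304 and 0.329 FPKM in control iPSCs. Plet1, of the longer list, also lay higher (log2 fold change 0.89, adjusted p = 0.0667). The 5 markers summed to 2.25, 1.54 and 2.52 FPKM in YAP-culture iPSCs, against 8.91, 3.34 and 6.17 FPKM in control iPSCs. Fewer cells of a type and less RNA per cell cannot be told apart in bulk libraries. The keratin Krt18 had 6.20, 6.19 and 10.5 FPKM in YAP-culture iPSCs, against 27.0, 13.1 and 17.7 FPKM in control iPSCs (-1.21, adjusted p = 0.118, and -0.81 after the GC correction).

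Among imprinted genes, which are active from one parental copy, Grb10 and Plagl1 rose. Grb10, an adaptor that restrains insulin and growth factor receptors (chr11:11930508-12038683), had 19.5, 23.9 and 22.2 FPKM in YAP-culture iPSCs, against 4.71, 6.70 and 4.41 FPKM in control iPSCs. The groups were clearly apart, at 1.88 ± 0.167 (SE, adjusted p = 0.0113). Plagl1, a zinc finger regulator of an imprinted gene network (chr10:13060504-13131694), had 12.7, 12.3 and 11.2 FPKM in YAP-culture iPSCs, against 4.40, 5.47 and 4.01 FPKM in control iPSCs (1.22, adjusted p = 0.0245). Both were higher still in the colonies, with means of 176 FPKM for Grb10 and 62.8 FPKM for Plagl1.

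The linked genes H19 and Igf2 of distal chromosome 7 lay lower in YAP-culture iPSCs without passing the test. H19, a non-coding RNA, had 28.9, 27.1 and 32.9 FPKM in YAP-culture iPSCs, against 93.4, 64.1 and 133 FPKM in control iPSCs (-1.62, adjusted p = 0.0612). Igf2, the fetal growth factor, had 5.80, 3.43 and 6.22 FPKM in YAP-culture iPSCs, against 31.9, 15.9 and 16.5 FPKM in control iPSCs (-1.83, adjusted p = 0.0683), and was called lower after the GC correction (-1.45, adjusted p = 0.0356). Phlda2, a placental growth suppressor of the same region, had 8.41, 5.03 and 16.3 FPKM in YAP-culture iPSCs and 24.0, 17.0 and 22.1 FPKM in control iPSCs (adjusted p = 0.162). The groups did not overlap for any of these genes. Of 32 imprinted genes 24 were tested, 2 rose (0.216% of all tested rows) and none fell, and the median was -0.25 (-0.21 after the GC correction). Without overlap, 8 of the 24 were lower (14.2% of all tested rows) and 3 were higher (16.6%). An unadjusted p below 0.05 was reached by 11 of them (25.4% of all tested rows).

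Of the tested matrix genes, Nid1 rose. Nid1, the basement membrane linker nidogen (chr13:13437602-13512275), had 50.8, 56.8 and 57.6 FPKM in YAP-culture iPSCs, against 22.9, 26.2 and 20.9 FPKM in control iPSCs (1.21 ± 0.123 SE, adjusted p = 0.0197). The 3 libraries of each group were close together. Fstl1, a secreted follistatin-like glycoprotein outside the list, had 14.8, 17.2 and 15.6 FPKM in YAP-culture iPSCs, against 4.81, 7.25 and 4.57 FPKM in control iPSCs (1.38, adjusted p = 0.0405). The proteoglycan Bgn, also outside it, rose by 1.45 (adjusted p = 0.0313), with 6.06 to 9.09 FPKM in YAP-culture iPSCs and 1.87 to 2.37 FPKM in control iPSCs. Lama1, the laminin chain of embryonic basement membrane, had 15.4, 14.8 and 24.6 FPKM in YAP-culture iPSCs, against 8.92, 10.6 and 8.13 FPKM in control iPSCs (0.89, adjusted p = 0.115), and was called after the GC correction (1.16, adjusted p = 0.0147). Of 24 matrix genes 21 were tested, 1 rose (0.216% of all tested rows) and none fell. Their median was 0.19, which was 0.43 after the GC correction and -0.02 without YAP-culture library 3.

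Lama1 is also a primitive endoderm gene, and the defining factors of that lineage were low. Gata6, its master regulator, was at most 0.146 FPKM in YAP-culture iPSCs and at most 0.111 FPKM in control iPSCs, and Sox17 was at most 0.0408 FPKM in YAP-culture iPSCs and at most 0.21 FPKM in control iPSCs. Gata4 lay between 0.996 and 1.35 FPKM in YAP-culture iPSCs and between 0.519 and 1.74 FPKM in control iPSCs. The 7 markers summed to 18.1, 17.6 and 27.3 FPKM in YAP-culture iPSCs, against 11.2, 13.3 and 9.94 FPKM in control iPSCs, nearly all of it Lama1. None of the 8 tested genes of the longer endoderm list was called, and 3 had an unadjusted p below 0.05 (25.4% of all tested rows).

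A further 5 called genes, grouped here only for reading and on no list, are Rnd3, Emp1, Ahnak, Ablim1 and Tspan5. Rnd3, an atypical small GTPase that opposes actin contraction (chr2:51130438-51149111), had 17.2, 18.4 and 14.4 FPKM in YAP-culture iPSCs, against 3.96, 5.02 and 3.22 FPKM in control iPSCs (1.81 ± 0.167 SE, adjusted p = 0.0138). Emp1, an epithelial membrane protein, had 5.50, 9.92 and 5.94 FPKM in YAP-culture iPSCs, against 0.677, 1.62 and 0.845 FPKM in control iPSCs (1.98, adjusted p = 0.0445). The scaffold Ahnak rose by 1.08, the actin-binding Ablim1 by 1.12 and the tetraspanin Tspan5 by 1.07, with adjusted p-values of 0.0346, 0.0338 and 0.0445. Of the list nearest to them, actin and SRF targets, no gene was called. An unadjusted p below 0.05 was reached by 5 of its 12 tested members (25.4% of all tested rows). Its tropomyosin Tpm1 had 47.6, 42.2 and 50.5 FPKM in YAP-culture iPSCs and 76.3, 81.1 and 69.4 FPKM in control iPSCs (-0.68, adjusted p = 0.0731). The list's median was -0.37 and went to 0.01 after the GC correction.

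Several of the genes that rose are strongly expressed in the non-pluripotent colonies, so levels of colony genes are set beside them. There were 29 protein-coding genes with a colony mean of at least 20 FPKM and at least 100 times the iPSC mean. The median of these genes stood at 0.134%, 0.438% and 0.279% of the colony level in YAP-culture libraries 1, 2 and 3, against 0.130%, 0.163% and 0.143% in control libraries 1, 2 and 3. Of the 29, 8 were higher without overlap in YAP-culture iPSCs, among them Emp1, Dlk1, Cd109 and Ccnd2, none was lower, and 8 were at 0 in all 6 iPSC libraries. Over all tested rows, which averaged 1 FPKM or more, 16.6% were higher and 14.2% lower without overlap. That share is not a background for the 29 genes, which were chosen for low iPSC levels in these same libraries. Dlk1, Cd109 and Ccnd2 were under the filter and not tested. Emp1 stood at 1.18%, 2.13% and 1.28% of its colony mean of 465 FPKM in YAP-culture iPSCs, against 0.145%, 0.348% and 0.182% in control iPSCs. Grb10 stood at 11.1%, 13.6% and 12.6% of its colony mean in YAP-culture iPSCs, Fstl1 at 5.56%, 6.45% and 5.84%, Myc at 3.91%, 4.6% and 6.91%, and B2m at 13.9%, 13.7% and 15.6%. Other genes that rose were above their colony means in all 3 YAP-culture libraries. They were Ctgf, Nid1, Cth, Trpm1, Vldlr, Pitpnc1, Obox6, Serpinb6c and the gene model C130074G19Rik. Pmel, Tdpoz4, Tcstv3 and Gm21818, which also rose, had colony means of 0. The part of colony cells or their RNA in these differences was not tested.

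The enzyme gene Cth rose to several times its control level. Cth, the last enzyme of transsulfuration, which makes cysteine (chr3:157894248-157925077), had 64.2, 87.2 and 72.6 FPKM in YAP-culture iPSCs, against 14.3, 17.5 and 12.1 FPKM in control iPSCs. The lowest YAP-culture library was far above the highest control library, at 2.28 ± 0.174 (SE, adjusted p = 0.00707), and of the 6 fits that leave out a library the call was lost without control library 1 or 3. The lipoprotein receptor Vldlr, also a target of the stress factor ATF4, rose by 1.05 (adjusted p = 0.0482), with 2.24, 2.75 and 2.25 FPKM in YAP-culture iPSCs and 0.547, 0.724 and 0.664 FPKM in control iPSCs. It was not called after the GC correction (0.88, adjusted p = 0.0279). Of 17 tested genes of the integrated stress and amino acid response, these 2 rose (0.216% of all tested rows) and none fell. Fold changes above 0 were seen in 14, and 10 were higher without overlap (16.6% of all tested rows). The median was 0.46 and was 0.61 after the GC correction, when Chac1, a glutathione-degrading enzyme, and Atf3, a stress transcription factor, were called too, at 1.54 and 1.06. Chac1 had 4.10, 6.07 and 11.4 FPKM in YAP-culture iPSCs, against 2.53, 3.36 and 2.08 FPKM in control iPSCs. Atf4 (0.42) and Asns (0.71), the pathway's main factor and the asparagine synthetase, had adjusted p-values of 0.158 and 0.0927.

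Glycolysis and hypoxia genes lay lower without a call. Of 24 tested members 23 had fold changes below 0, and 16 were lower without overlap (14.2% of all tested rows). An unadjusted p below 0.05 was reached by 17 (25.4% of all tested rows), and the median was -0.55, or -0.41 after the GC correction. The prolyl hydroxylase Egln3, a sensor of oxygen, had 9.04, 7.31 and 8.80 FPKM in YAP-culture iPSCs, against 18.2, 19 and 14.7 FPKM in control iPSCs (-0.96, adjusted p = 0.0588). The summed level of the list was 2830, 3000 and 4030 FPKM in YAP-culture iPSCs, against 5370, 4840 and 4350 FPKM in control iPSCs, with YAP-culture library 3 the nearest to the controls.

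B2m, the light chain of MHC class I molecules that display peptides to T cells, rose alone of its list. It (chr2:122147686-122153083) had 25.1, 24.9 and 28.3 FPKM in YAP-culture iPSCs, against 9.73, 9.44 and 8.80 FPKM in control iPSCs. Both groups were tight, at 1.39 ± 0.106 (SE, adjusted p = 0.00707), and the colonies had 179, 186 and 180 FPKM. The antisense row of Patl2 overlaps B2m and had 7.89, 7.28 and 10.2 FPKM in YAP-culture iPSCs, against 4.30, 3.61 and 3.76 FPKM in control iPSCs (0.94, adjusted p = 0.0612). The library kit is stranded, but whether the counting used strand is not given in the sources used here. Of 14 tested interferon and MHC class I genes, B2m was the only one called (0.41% of all tested rows were called). The list's median was -0.35 (-0.11 after the GC correction). Of the 14, 8 were lower without overlap (14.2% of all tested rows). Ifitm1, an interferon-induced membrane protein, had a log2 fold change of -1.57 (adjusted p = 0.0612) and was called lower after the GC correction (-1.46).

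Of the 27 genes that rose and were above 0 in all 6 libraries, Trpm1 had the largest log2 fold change. Trpm1, a cation channel of retinal and pigment cells (chr7:64153835-64269775), had 12.1, 18.4 and 19.3 FPKM in YAP-culture iPSCs, against 1.39, 2.90 and 1.94 FPKM in control iPSCs (2.52 ± 0.243 SE, adjusted p = 0.0151). Pmel, which builds the fibrils of pigment granules, rose by 1.22 (adjusted p = 0.0452), with 10.8, 13.9 and 15.3 FPKM in YAP-culture iPSCs and 6.04, 4.62 and 4.72 FPKM in control iPSCs. Apela, a secreted peptide hormone of the apelin receptor that human embryonic stem cells use for self-renewal, had 53.9, 57.7 and 54.1 FPKM in YAP-culture iPSCs, against 16.8, 19.9 and 15.9 FPKM in control iPSCs (1.61 ± 0.118 SE, adjusted p = 0.00677). Its YAP-culture values varied by less than the gap to the controls. The protease inhibitor gene Serpinb6c, of a family of close paralogs, rose by 1.35 (adjusted p = 0.0448). The secreted WNT antagonist Sfrp1 had 17.2, 22.7 and 18.1 FPKM in YAP-culture iPSCs, against 3.60, 7.36 and 3.58 FPKM in control iPSCs (1.85, adjusted p = 0.0526), and was called after the GC correction (1.96, adjusted p = 0.0268).

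Genes that fell while staying above 0 in all libraries had diverse roles. There were 15 such rows, against 27 that rose while staying above 0 in all libraries. Vapb, a tether between the endoplasmic reticulum and other membranes (chr2:173737511-173784336), had 7.94, 6.47 and 9.47 FPKM in YAP-culture iPSCs, against 33.0, 27.2 and 31.7 FPKM in control iPSCs (-1.83 ± 0.156 SE, adjusted p = 0.0106). Imp4, a factor of ribosomal RNA processing, had 9.22, 7.51 and 9.31 FPKM in YAP-culture iPSCs, against 27.7, 24.7 and 22.1 FPKM in control iPSCs (-1.42, adjusted p = 0.0149). Psmd5, a proteasome assembly chaperone, had 23.4, 20.8 and 19.9 FPKM in YAP-culture iPSCs, against 64.6, 47.0 and 45.6 FPKM in control iPSCs (-1.24, adjusted p = 0.0422). Tcea3, an elongation factor of RNA polymerase II, had 16.1, 15.4 and 22.8 FPKM in YAP-culture iPSCs, against 46.5, 42.0 and 41.5 FPKM in control iPSCs (-1.23, adjusted p = 0.0451), and was under the fold threshold after the GC correction (-0.93). In each of these 4 genes the highest YAP-culture library lay well under the lowest control library.

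A further 13 called rows were listed at 0 in every library of one group. Of these, 11 were listed at 0 in YAP-culture iPSCs and 2, Lats2 and Rbm4, in control iPSCs. Jmjd6, a hydroxylase of the Jumonji family (chr11:116837432-116843449), was listed at 0 in all YAP-culture and all colony libraries and had 52.6, 45.8 and 46.6 FPKM in control iPSCs. Ears2, the mitochondrial glutamyl-tRNA synthetase, was listed at 0 in YAP-culture iPSCs and in the colonies, against 12.9, 11.6 and 11.3 FPKM in control iPSCs. Itfg2, a subunit of a complex that recruits a regulator of nutrient signalling, was listed at 0 in YAP-culture iPSCs, against 10.8, 11.1 and 10.1 FPKM in control iPSCs, while the colonies had 11.7, 14.5 and 14.4 FPKM. The RNA-binding protein gene Rbm4 had 10, 9.77 and 6.65 FPKM in YAP-culture iPSCs and was listed at 0 in control iPSCs.

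These 13 rows sat mostly where gene models overlap. Of the 13, 12 overlapped another row of the table, as did 46.6% of all tested rows. The partner was listed at 0 in all 6 libraries for Jmjd6 (Mettl23), Itfg2 (Nrip2), Dbndd2 (Gm20458) and Rbm4 (Gm21992). The partner of Ears2, Ubfd1, had 24.3, 25.3 and 24.5 FPKM in YAP-culture iPSCs and 17.9, 19 and 16.1 FPKM in control iPSCs. The partner of the RNA-modifying enzyme gene Lcmt2, Adal, had 17.0, 17.4 and 13.9 FPKM in YAP-culture iPSCs and 9.19, 10.8 and 8.37 FPKM in control iPSCs. The groups overlapped for the partners Nt5c2 (of Ina), Rabif (of Gm25612), Vat1 (of Rnd2), Narfl (of Haghl), 1810032O08Rik (of St6galnac2) and Xpo4 (of Lats2). Nt5c2 had 9.99, 10.1 and 10.2 FPKM in YAP-culture iPSCs and 10.3, 10.1 and 9.87 FPKM in control iPSCs. Whether such a 0 is absent RNA or an estimate assigned to the partner was not tested, and no fold is given for these rows.

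**Figure D5:**
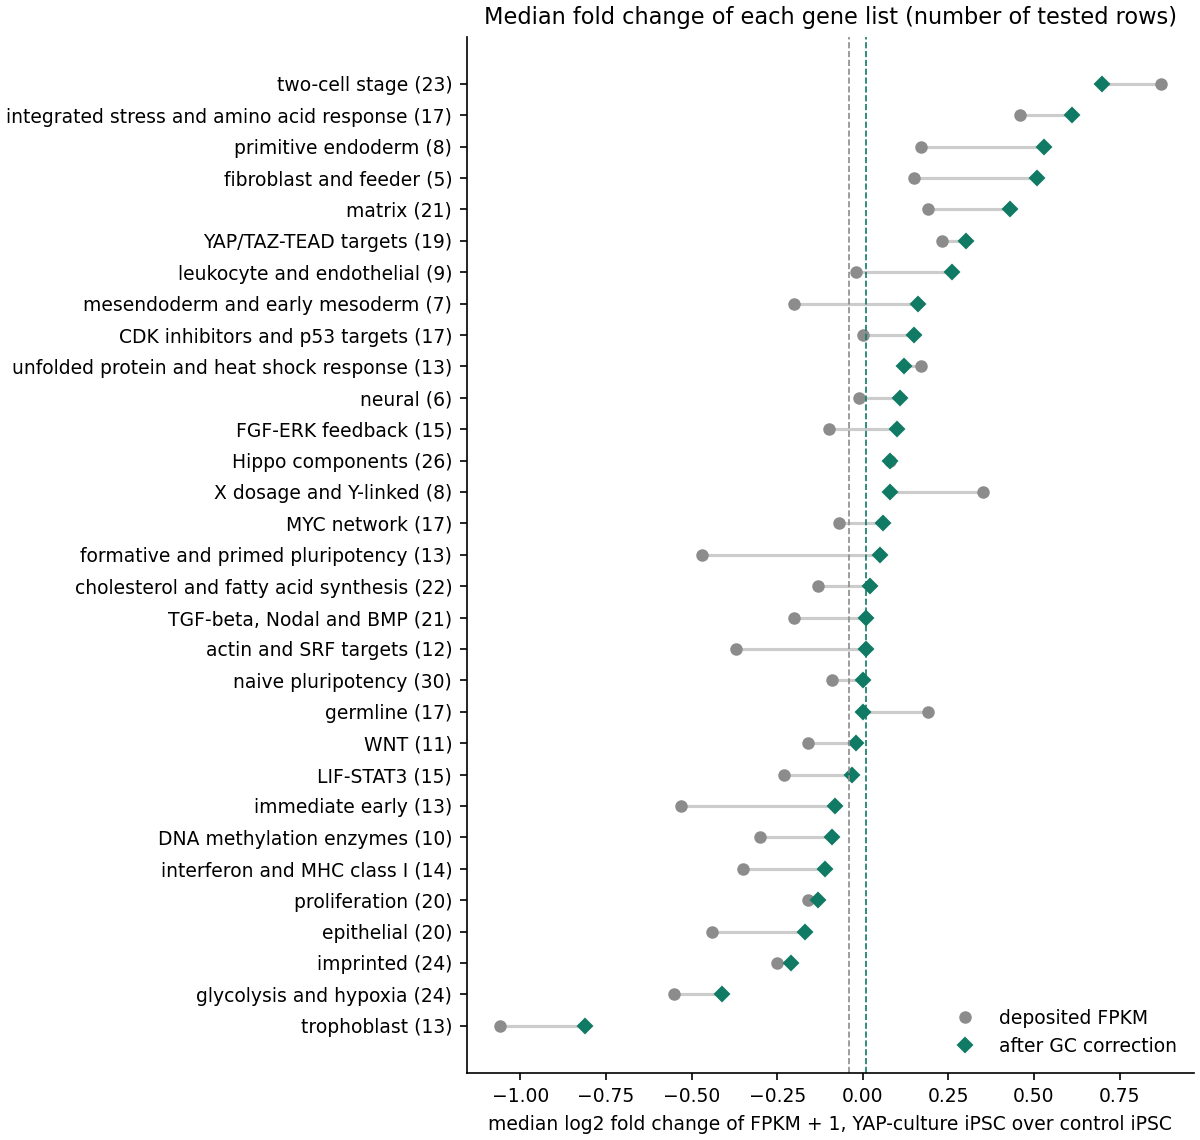
Median log2 fold change of FPKM + 1 (horizontal axis, YAP-culture over control iPSCs) of each gene list with at least 5 tested rows, in the deposited values (grey circles) and after the GC correction (green diamonds), with dashed lines for all tested rows. The two-cell list has the highest median after the correction, at 0.70, and the trophoblast list the lowest, at -0.81.

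No row was called in 22 of the 31 lists with tested members, and 9 lists held at least 1 call. For most lists without one, the member with the smallest p is given. An unadjusted p below 0.05 was reached by 25.4% of all tested rows, the share to set beside the counts below. Proliferation genes had a median of -0.16 over 20 members, 7 of them at an unadjusted p below 0.05, and their member Ccna2, the cyclin of S phase, had 96.9, 95.4 and 72.3 FPKM in YAP-culture iPSCs, against 60.9, 68.9 and 56.1 FPKM in control iPSCs (0.50, adjusted p = 0.153). The CDK inhibitors and p53 targets had a median of 0.00 over 17, 6 of them at an unadjusted p below 0.05. Cdkn2a, the locus of 2 inhibitors that restrain reprogramming, had 0.643, 0.874 and 1.65 FPKM in YAP-culture iPSCs, against 4.46, 2.99 and 3.07 FPKM in control iPSCs (-1.15, adjusted p = 0.0927, and -0.56 after the GC correction). Immediate early genes had a median of -0.53 over 13, of which 7 reached an unadjusted p below 0.05, and -0.08 after the GC correction, when Ier3 was called lower and Atf3 higher. Epithelial genes had a median of -0.44 over 20, of which 9 reached an unadjusted p below 0.05, and -0.17 after the correction, and the splicing regulator Esrp1 had 9.40, 6.92 and 9.30 FPKM in YAP-culture iPSCs, against 16, 13.1 and 15.1 FPKM in control iPSCs (-0.73, adjusted p = 0.0943). Cholesterol and fatty acid synthesis (-0.13 over 22), TGF-beta, Nodal and BMP (-0.20 over 21), germline (0.19 over 17), FGF-ERK feedback (-0.10 over 15), LIF-STAT3 (-0.23 over 15), unfolded protein and heat shock (0.17 over 13) and WNT genes (-0.16 over 11) held no call either. After the GC correction these medians were 0.02, 0.01, 0.00, 0.10, -0.03, 0.12 and -0.02, in the same order, with Sfrp1 and Cdx1 called higher in the WNT list. In the deposited values 6, 5, 5, 2, 4, 4 and 5 of their members reached an unadjusted p below 0.05, in the same order. The sterol enzyme Cyp51 had a log2 fold change of 0.41 (adjusted p = 0.144), the ERK phosphatase Dusp6 -0.43 (adjusted p = 0.11) and the heat shock co-chaperone Dnajb1 -0.29 (adjusted p = 0.162).

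Lists of other cell types gave no call in the deposited values. The fibroblast and feeder list had 5 tested members of 24, the neural list 6 of 14, the mesendoderm list 7 of 22, and the leukocyte and endothelial list 9 of 14. Of these tested members, 1, 4, 2 and 4 reached an unadjusted p below 0.05, as did 25.4% of all tested rows. Lefty1, an inhibitor of Nodal signalling, had 2.09, 2.29 and 4.34 FPKM in YAP-culture iPSCs, against 12.4, 7.16 and 8.52 FPKM in control iPSCs (-1.42, adjusted p = 0.0863, and -0.91 after the GC correction). Cdx1, a homeobox gene of the mesendoderm list, was called higher after the GC correction (1.01, against 0.35 in the deposited values). The neural gene Map2 had a log2 fold change of 0.53 (adjusted p = 0.153), and the fibroblast gene S100a4 one of 0.48 (adjusted p = 0.156). Lyz2, the lysozyme of macrophages, had 18.4, 17.8 and 26.3 FPKM in YAP-culture iPSCs, against 8.42, 4.91 and 4.86 FPKM in control iPSCs (1.64, adjusted p = 0.0588), and was called after the GC correction (1.63, adjusted p = 0.0223). Laptm5, a lysosomal protein of blood cells, had 27.9, 26.3 and 47.4 FPKM in YAP-culture iPSCs, against 15.5, 20.8 and 14.1 FPKM in control iPSCs (0.94, adjusted p = 0.132), and was called after the GC correction (1.32, adjusted p = 0.0224). In the colonies Laptm5 had 114, 124 and 135 FPKM. The leukocyte and endothelial list had a median of -0.02 (0.26 after the GC correction), with 4 of its 9 tested members above 0. Cd68, Pecam1, Eng and Egfl7 of that list were at -0.07, -0.06, -0.61 and -0.76, with no call. The leukocyte-wide marker Ptprc was at most 0.0989 FPKM in YAP-culture iPSCs and at most 0.0373 FPKM in control iPSCs, and Tyrobp had 0.843, 0.438 and 2.50 FPKM in YAP-culture iPSCs and 0, 0.397 and 0.427 FPKM in control iPSCs. The part of leukocytes in these differences was not tested.

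Sex-linked genes placed the iPSC groups together and apart from the colonies. The Y-linked Eif2s3y had 64.5, 69.9 and 50.4 FPKM in YAP-culture iPSCs and 32.8, 48.4 and 41.5 FPKM in control iPSCs, against at most 0.373 FPKM in the colonies. Xist, the RNA that silences an X chromosome in female cells, was at 0.849, 1.66 and 0.770 FPKM in YAP-culture iPSCs and at 0.451, 0.574 and 0.481 FPKM in control iPSCs, under the filter, while the colonies had 203, 147 and 148 FPKM. Eif2s3y, Ddx3y, Uty and Xist were each higher in YAP-culture iPSCs than in control iPSCs without overlap. Y-linked Ddx3y and Eif2s3y did not differ beyond the test's threshold between the iPSC groups (adjusted p = 0.121 and 0.159). The 8 tested members of the X dosage and Y-linked list had a median of 0.35, and 0.08 after the GC correction. Of the 8, 4 were higher without overlap (16.6% of all tested rows). An unadjusted p below 0.05 was reached by 4 (25.4% of all tested rows).

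Whole-chromosome medians stayed close to 0 where base composition was corrected. In the deposited values the chromosome medians of YAP-culture libraries 1 and 2 ran from -0.251 on chromosome 11 to 0.26 on chromosome 13, and those of YAP-culture library 3 from -0.062 to 0.048, against -0.068 to 0.056 in control libraries. These are deviations from the control mean, of which each control library is itself a part. After the GC correction the median difference between the groups lay between -0.046 and 0.049 on every chromosome tested.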

How the data were processed

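RNA was extracted with Trizol and made into libraries with a stranded mRNA kit, per the labels' protocols. TopHat, Cufflinks and the mm10 genome are named in the submitters' processing notes, with no versions. The authors deposited 1 table of FPKM with 48640 rows for all 9 libraries. Fragment counts are not used here, so the depth behind each value is unknown. FPKM summed to between 542034 and 634471 in the 6 iPSC libraries. Rows of ribosomal RNA took 2.915% of the sum in control library 3 and at most 0.48% in the other iPSC libraries. Deposited starts count from 0 and were raised by 1, and 27 names turned into dates by a spreadsheet were repaired from their identifiers.

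Rows averaging 1 FPKM or more across the 6 iPSC libraries were tested on log2(FPKM + 1) with limma 3.58.1 in R 4.3.3, with a trended variance prior, two-sided, and with Benjamini-Hochberg adjustment over all 13429 rows. Calls needed a log2 fold change of 1 or more in size and an adjusted p under 0.05. No gene was fitted with the colonies in this test. On simulated data, 26%, 80%, 82% and 94% of rows changed by 1, 1.5, 2 and 3 on the log2 scale were called, with 50 rows changed at each size, and there were 6 false calls. Simulated noise was normal, with each row's own spread, and independent between rows and libraries. It lacked the shift with GC content that rows of a library share here, so its rates do not carry over to these libraries. The GC correction subtracted a loess curve (span 0.3) of each library's deviation on the GC content of the longest GENCODE M21 transcript, for 99.64% of tested rows. It was added after seeing the data, as were the list of colony genes and the marker sum without Dppa5a.

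The members, 32 gene lists and 21 fixed genes were chosen with earlier results of these data known. Genes named by rule were those fixed, per list the 2 calls of greatest change either way or else its lowest p, and the 10 protein-coding calls that changed most either way among genes averaging 10 FPKM or more in one group. A further 26 genes and the other called rows were named after their values were seen. No mitochondrially encoded row was tested. A few results that the rule would name are not reported here. Promoter windows came from RefSeq tables of GRCm38.p6. Alternatives covered pseudocounts, filters, scaling, the variance prior, library weights, a replicate block and leaving out each library. Tables and figures were made with Python 3.11.15, pandas 2.3.3 and matplotlib 3.10.9.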

Additional observations from a re-analysis of the deposited data

How the results depend on the processing

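The number of called rows, 55 in the deposited values, depended on the processing. It was 63 with a pseudocount of 0.1, 25 with a pseudocount of 5, 30 with no filter, 36 with a minimum mean of 5 FPKM, and 192 in a fit of all 9 libraries with the filter over all of them (213 with the same rows). Median-ratio scaling gave 79 (38 higher, 41 lower), quantile normalization 94 (51 higher, 43 lower), and protein-coding rows rescaled to equal totals 155 (73 higher, 82 lower). Array weights gave 937 (207 higher, 730 lower), a test against the fold threshold 7, and rows above 0 in all 6 libraries 129. Leaving out 1 library gave between 12 (without control library 3) and 1061 (without YAP-culture library 3), and leaving out both gave 75. Chosen after seeing the data, the GC correction gave 141, 330 without YAP-culture library 3, 166 in a fit of all 9 libraries and 140 with rows above 0 in all 6. The cause of these differences was not tested. With the replicate number as a block 13 rows were called, 9 of them among the 55, and 61 with the block and the GC correction. The labels do not say that numbers pair the libraries, so they were not taken to. Deviations of same-numbered libraries correlated at -0.141, 0.128 and -0.0977, and those of differently numbered libraries at -0.106 to 0.211. These correlations cannot decide on pairing, because the deviations also carry each library's shift with GC content. Over the named genes and all alternatives, 2098 fold changes kept their direction and side of the threshold, 212 lost the call, 168 gained it and 13 changed sign, none of them called on either side. With the GC correction Pou5f1 went to 0.04 (0.03 without YAP-culture library 3) and Esrrb to 0.21 (0.24 without that library, 0.22 in the fit of all 9). Without that library Sox2 came to 0.08 and Dnajb1 to 0.04 after the correction, and quantile normalization put Zfp42 at 0.01. Of list medians, 765 moved by less than the spread between replicates and 133 by more, 67 changed sign (in 15 lists), and the imprinted median of -0.25 came to -0.03 with protein-coding rows rescaled. With 3 libraries a group, an exact permutation test cannot go below p = 0.1, and the median standard error of 0.165 on the log2 scale limits which differences pass.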
